A study of Mus musculus with 2 samples.

Results

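The angiopoietins and the Tie receptors form the vessel-stabilising signalling system that sits directly upstream of PI3K in endothelial cells (ECs). Its 5 genes measured here, Angpt1, Angpt2, Tek, Tie1 and Ptprb, were taken by symbol from a list of 32285 features, and every one was detected in both libraries. Single-cell RNA sequencing (5′ chemistry of 10x Genomics) was performed on mouse embryos at E13.5, with 1 library per genotype, each from 3 pooled embryos. The control embryos were Isl1-Cre;R26R-eYFP and the mutant embryos were Isl1-Cre;R26R-eYFP;Pik3caH1047R. Both genotypes therefore carry a Cre recombinase driven by Isl1, a gene of cardiopharyngeal mesoderm and of several other early lineages, and a reporter that leaves eYFP in every descendant of a recombined cell. The mutant embryos also switch on, in those same descendants, an activated form of the PI3K catalytic subunit from the R26R locus. All mice had a mixed C57BL/6J and Crl:CD1(ICR) background. The labels give the tissue as pharyngeal arch, whereas the protocol describes the body above the liver. The sequenced cells were viable cells sorted for eYFP, and therefore include any lineage that had expressed Isl1.

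Angpt1 is the secreted ligand that activates Tek (also called Tie2), a receptor tyrosine kinase of the endothelium whose phosphorylation recruits PI3K and switches on AKT. Angpt2 is a ligand of the same receptor that acts as a weak or context-dependent agonist and often opposes Angpt1. It is made mainly by ECs that are being remodelled and by lymphatic ECs. Tie1 is a closely related receptor that has no ligand of its own and modulates signalling by Tek, while Ptprb (VE-PTP) is the receptor-type phosphatase of ECs that removes phosphate from Tek. Mesenchymal and perivascular cells are the classical source of Angpt1, so ligand and receptor are usually made by different cells.

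The genes lie on 4 chromosomes of the GRCm38 build. Tek spans chr4:94739289-94874976 on the plus strand and Tie1 spans chr4:118471191-118490061 on the minus strand. Ptprb spans chr10:116275523-116389535 on the plus strand. Angpt1 lies at chr15:42424723-42676977 on the minus strand, and its first bases are overlapped by the antisense gene Gm17473. Angpt2 lies at chr8:18690263-18741562 on the minus strand, inside the opposite-strand gene Mcph1. The spans run from 18.9 kb for Tie1 to 252 kb for Angpt1, with Tek at 136 kb and Ptprb at 114 kb. The span matters for what follows, since some clusters took up to 44.9% of their UMIs from genes longer than 100 kb, compared with 11.7% over all control cells and 10.9% over all mutant cells. Whether intronic reads were counted is not stated.

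The promoters of the receptors Tek and Tie1, the members most restricted to ECs along with Ptprb, are given from 250 bases before the annotated start to 50 bases after it (RefSeq, GRCm38.p6). Capitals mark the core of the ETS motif, GGAA on either strand, which is read by the ETS factors that are active in ECs. The Tek window is chr4:94739039-94739338 on the plus strand and the Tie1 window is chr4:118489800-118490099 on the minus strand. The RefSeq start used for Tie1 lies inside the gene span given above, whose first base on that strand is 118490061. Most of the Tie1 window therefore lies within that span.
Tek: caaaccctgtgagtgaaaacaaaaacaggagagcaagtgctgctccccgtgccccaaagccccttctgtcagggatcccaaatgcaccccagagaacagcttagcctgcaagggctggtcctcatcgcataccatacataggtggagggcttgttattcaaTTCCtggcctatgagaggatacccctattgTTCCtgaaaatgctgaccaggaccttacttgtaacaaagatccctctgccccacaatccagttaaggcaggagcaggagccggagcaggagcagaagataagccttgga
Tie1: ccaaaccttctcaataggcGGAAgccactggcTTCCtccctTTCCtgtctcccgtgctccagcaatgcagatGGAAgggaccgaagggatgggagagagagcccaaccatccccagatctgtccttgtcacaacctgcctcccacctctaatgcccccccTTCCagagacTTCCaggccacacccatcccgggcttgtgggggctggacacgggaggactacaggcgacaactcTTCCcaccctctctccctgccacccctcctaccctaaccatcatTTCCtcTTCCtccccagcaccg
The Tek window held 2 ETS cores, both on the opposite strand, at -89 and -59 from the start site. The Tie1 window held 9, of which 2 were on the strand of the gene and 7 on the opposite strand. A core this short is common, since 96.0% of 32817 promoter windows of the same length held at least 1 and the median window held 3. Neither window held the FOXO motif GTAAACA, the hypoxia response element core ACGTG or a pair of ETS cores on the same strand with 4 bases between them, on either strand. These occurred in 3.65%, 19.6% and 2.56% of all windows, respectively. These matches describe the letters of the windows only.

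The filters required over 2000 but under 9000 detected genes and under 10% mitochondrial UMIs per cell, and left 2783 control cells with 63153191 UMIs and 3489 mutant cells with 69717583 UMIs. The median was 20412 UMIs per control cell and 16839 per mutant cell. The libraries differed in sex, with 95.5% female-like cells in the control library and 33.6% in the mutant library, and the 2 libraries shared 12 cell barcodes among the kept cells. The Pik3ca transcript was at 46.8 CPM (UMIs of a gene per 1000000 UMIs of the class) in control and 45.5 CPM in mutant EC-like cells, a log2 ratio of -0.04 (95% counting interval -0.30 to 0.23), and the mutant allele cannot be told apart from the endogenous gene in these counts. Clusters were named from marker genes, with the members left out of the clustering. The EC-like cluster had 22 of its 22 markers raised and held 146 control and 689 mutant cells, 5.25% and 19.7% of each library. Since there was 1 library per genotype, there are no replicates and no test of the genotype. All intervals are 95% intervals for counting error only, and a gene was called different in a class when its whole interval lay beyond 1.5-fold and it had at least 20 UMIs.

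The receptors and the phosphatase were mainly detected in EC-like cells, whereas both ligands were mainly detected elsewhere. EC-like cells gave 94.6% of the Tie1 UMIs in the control and 95.4% in the mutant library. For Ptprb the shares were 88.6% and 92.8%. Tek was less restricted, with 67.5% of its control UMIs and 87.8% of its mutant UMIs in EC-like cells, and the mesenchyme-like class held a further 13.4% and 3.15%. For Angpt2 the EC-like share was 11.5% in the control and 24.7% in the mutant library. For Angpt1, 36.8% of the control UMIs came from an unnamed cluster led by Adh1, Wnt2 and Hoxb5 and 34.1% from mesenchyme-like cells. In the mutant library 25.4% of Angpt1 came from mesenchyme-like cells and 30.3% from an unnamed cluster led by Hbb-bs, Ccl4 and Tyrobp.

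**Figure D1:**
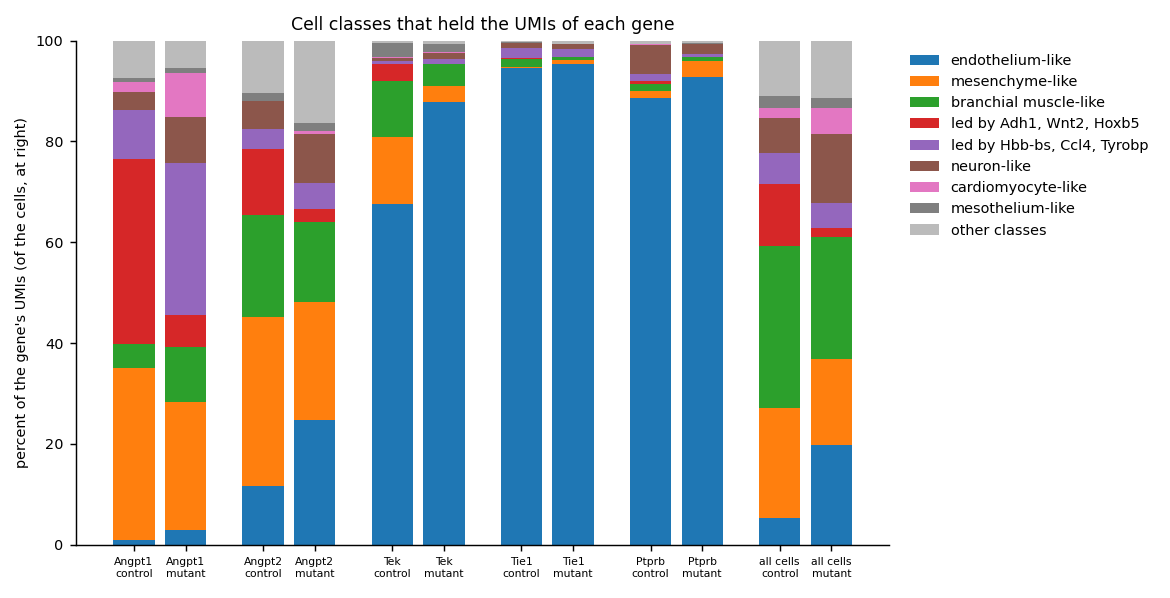
Percent of the UMIs of each member contributed by each cell class (stacked bars, y axis in percent), for the control and the mutant library, with the share of cells beside them. EC-like cells are 5.25% and 19.7% of cells and supply 94.6% and 95.4% of Tie1 but 11.5% and 24.7% of Angpt2.

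Over all kept cells, the 3 endothelial members were higher in the mutant library and Angpt1 was lower. Tek was at 25.5 CPM in the control and 72.4 CPM in the mutant library, 2.84-fold higher. Tie1 was at 20.5 and 66.2 CPM, 3.24-fold higher, and Ptprb at 17.2 and 67.3 CPM, 3.91-fold higher. EC-like cells were 5.25% of control and 19.7% of mutant cells, and in such sums more cells of a type and more RNA per cell cannot be told apart. Angpt1 was at 41.3 CPM in the control and 27.5 CPM in the mutant library, a log2 ratio of -0.59 (-0.67 to -0.50). Angpt2 was at 7.14 and 6.50 CPM, with an interval that includes no difference (-0.33 to 0.06).

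Summed over all EC-like cells, the receptors and the phosphatase differed little between genotypes, with Tie1 slightly lower in the mutant. Neither ligand was called. The ratio of Angpt2 had the opposite sign in G1 cells, where its interval included 0 and 14 of 65 mutant UMIs came from 1 cell. Tek was at 341 CPM in the control (321 to 362, 1086 UMIs) and 323 CPM in the mutant (314 to 333, 4431 UMIs). The log2 ratio of Tek was -0.08 (-0.17 to 0.02). The counting intervals of the libraries overlapped. The interval of the ratio holds counting error only and does not bound the difference between genotypes. Tie1 was at 384 CPM in the control (362 to 406) and 321 CPM in the mutant (312 to 331), and these intervals did not overlap (log2 ratio -0.26, -0.35 to -0.16). Ptprb was at 303 CPM (284 to 322) and 318 CPM (308 to 327), with a log2 ratio of 0.07 (-0.03 to 0.17). Of the 5 members, 0 were called different in EC-like cells, against 9.2% of the 14079 genes tested there. A scaling by the trimmed mean of M values would add 0.12 to each EC-like log2 ratio and a scaling by the median gene 0.10. Under these the Tek ratio was 0.04 and 0.02, on the other side of 0, and that of Tie1 -0.14 and -0.15. Among female-like EC-like cells alone, Tek was at 343 CPM in the control and 333 CPM in the mutant, Tie1 at 390 and 343 CPM, Ptprb at 309 and 352 CPM and Angpt2 at 17.4 and 6.12 CPM.

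Both ligands gave few UMIs in ECs. Angpt2 gave 52 UMIs in control EC-like cells, 16.3 CPM (12.2 to 21.4), and 112 UMIs in mutant EC-like cells, 8.17 CPM (6.73 to 9.83). The intervals did not overlap, and the log2 ratio was -1.0 (-1.49 to -0.50), which was not beyond 1.5-fold over its whole length. Angpt1 gave 23 control UMIs (7.22 CPM) and 56 mutant UMIs (4.08 CPM), with a log2 ratio of -0.82 (-1.55 to -0.05). In EC-like cells 23.7% of genes had an interval wholly below 0 and 16.6% wholly above 0. Of the Angpt1 UMIs of control EC-like cells, 11 of 23 came from 1 cell, so this difference rests on very few molecules.

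**Figure D2:**
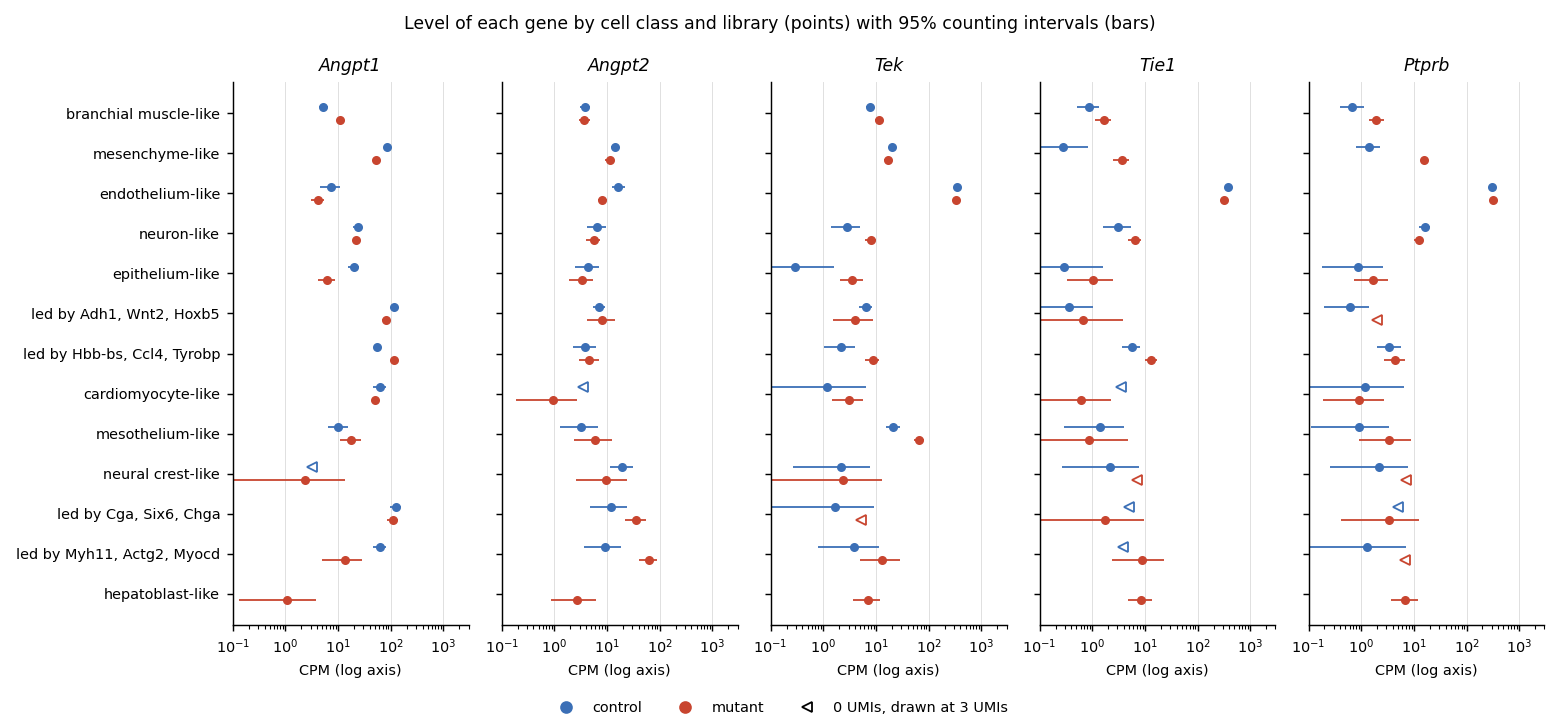
Level of each member in each cell class, in CPM on a log axis that starts at 0.1, control and mutant side by side with 95% counting intervals, where open triangles stand for 0 UMIs and are drawn at the level of 3 UMIs. Tek, Tie1 and Ptprb stand between 303 and 384 CPM in EC-like cells of both libraries, whereas Angpt1 stands highest in mesenchymal and unnamed clusters.

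Most EC-like cells carried the receptors. A Tek UMI was found in 88.4% of control and 88.7% of mutant EC-like cells. The shares were 95.2% and 92.5% for Tie1 and 84.2% and 88.7% for Ptprb. The background in epithelium-like cells, where Tek is not known to act, was 0.568% of control and 4.41% of mutant cells for Tek, at median depths of 15696 and 15704 UMIs against 20162 and 17004 UMIs in EC-like cells. After every cell was thinned to 5000 UMIs, the EC-like shares for Tek were 67.8% and 70.9%, those for Tie1 77.6% and 74.9% and those for Ptprb 60.1% and 65.8%. Over all classes, 61 control and 173 mutant cells were too shallow to be thinned. Tek and Tie1 were found together in 85.6% of control and 84.5% of mutant EC-like cells, and all 3 endothelial members in 78.1% and 79.1%. None of the 3 was seen in 3 of 146 control and 13 of 689 mutant cells. The counts per cell ran far above the median of 5 Tek UMIs, with a maximum of 62 in a control cell and 128 in a mutant cell.

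Angpt2 was found in 30 of 146 control EC-like cells (20.5%) and 68 of 689 mutant EC-like cells (9.87%). After thinning the shares were 6.99% (3.40 to 12.5) and 3.81% (2.48 to 5.57), intervals that overlapped. In the epithelium-like class the unthinned shares were 7.39% and 5.15% and the thinned shares 3.03% and 1.59%. Cells with Angpt2 were about as likely to carry Tek as cells without it. Tek was present in 26 of 30 control cells with Angpt2 (86.7%) and in 103 of 116 without it (88.8%), and in the mutant library in 91.2% and 88.4%. Of the cells with Angpt2, 20 control and 58 mutant cells had a single UMI, and 1 control and 2 mutant cells had 10 or more.

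EC-like cells were clustered again to see which vessels carry each gene. Of the 7 clusters, 3 could be named from markers, as capillary and venous-like (67 control and 411 mutant cells), arterial-like (18 and 44) and lymphatic-like (18 and 29). These had 5 of 12, 10 of 15 and 9 of 12 of their markers raised, respectively. The genes most raised in the capillary and venous-like cluster were Angptl4, Apln, Hilpda and Fabp4. The other 4 clusters were left unnamed and are called by their leading genes. That led by Eln, Fbln5 and Hand2os1 had 11 of 12 endocardial markers raised, but its first leading genes, Eln and Fbln5, are on the arterial list. Tek differed widely between the 7 clusters in both libraries. It was lowest in lymphatic-like ECs, at 84.9 CPM in the control (58.8 to 119) and 78.8 CPM in the mutant (59.9 to 102). With subtypes assigned by marker counts per cell in place of clusters, the lymphatic-like level was 81.0 CPM in the control but 182 CPM in the mutant. Capillary and venous-like ECs had 257 and 261 CPM. Tek was highest in the cluster led by Eln, Fbln5 and Hand2os1, at 1058 and 655 CPM, and in that led by Kirrel3, Nlgn1 and Grip1, at 968 and 921 CPM. The Kirrel3 cluster was shallow, with a median of 8275 UMIs in mutant cells, and took 30.3% and 29.5% of its UMIs from genes over 100 kb. The part of this in its high Tek level was not tested.

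Tie1 was spread more evenly over named vessel types. In the control it was at 292 CPM in capillary and venous-like, 385 CPM in lymphatic-like and 534 CPM in arterial-like ECs. In the mutant library lymphatic-like ECs had 231 CPM, capillary and venous-like ECs 291 CPM and arterial-like ECs 374 CPM. Lymphatic-like ECs were thus low in Tek in both libraries while their Tie1 was above the capillary and venous-like level in the control and below it in the mutant. Ptprb followed the order of Tek at the low end, with 145 and 109 CPM in lymphatic-like ECs and 202 and 244 CPM in capillary and venous-like ECs. Arterial-like ECs stood above capillary and venous-like ECs in Ptprb, with 401 and 329 CPM, but below them in Tek, with 214 and 161 CPM.

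**Figure D3:**
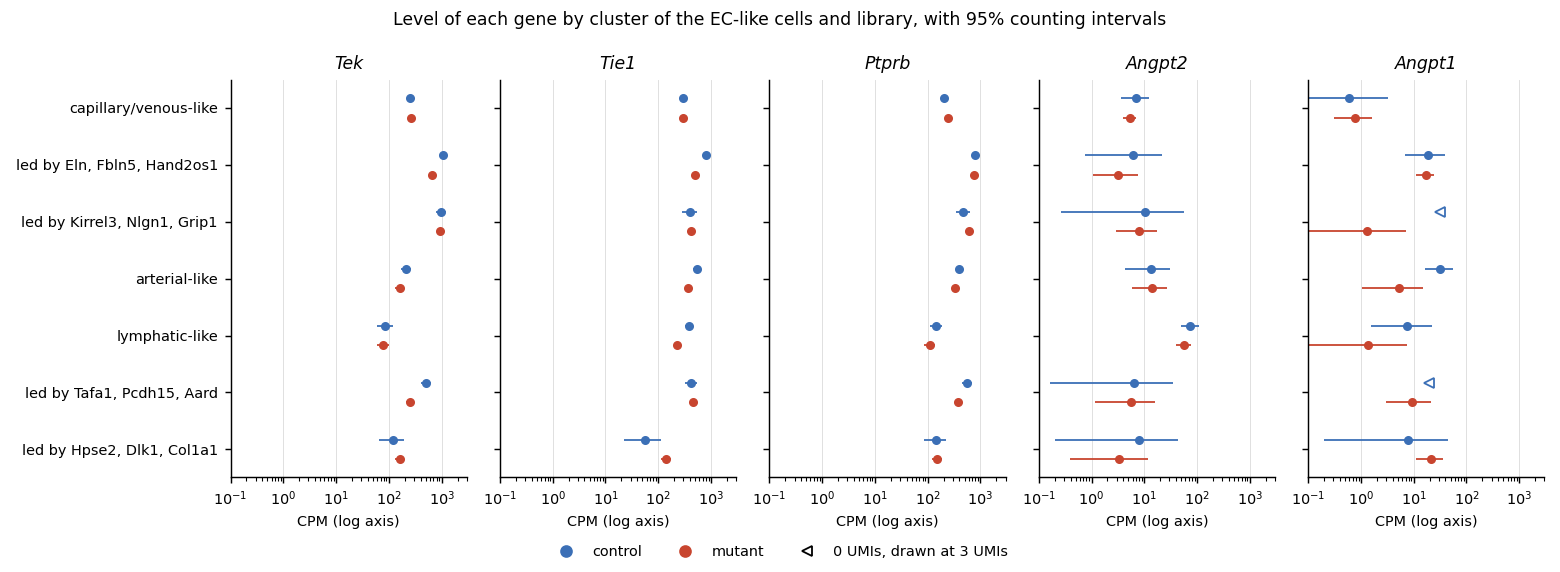
Level of each member in the 7 clusters of EC-like cells, in CPM on a log axis that starts at 0.1, control and mutant side by side with 95% counting intervals, where open triangles stand for 0 UMIs and are drawn at the level of 3 UMIs. Lymphatic-like ECs are lowest in Tek (84.9 and 78.8 CPM) and highest in Angpt2 (74.9 and 55.7 CPM).

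In the largest cluster, the capillary and venous-like ECs, the intervals of both receptors included no difference. The log2 ratio was 0.02 (-0.13 to 0.17) for Tek and -0.01 (-0.15 to 0.13) for Tie1. Ptprb was higher in the mutant, 0.27 (0.11 to 0.44). No member was called there, against 8.75% of 12454 genes. The clusters with lower Tie1 were others, with log2 ratios of -0.74 (-1.06 to -0.41) in lymphatic-like ECs, -0.66 (-0.87 to -0.46) in the Eln cluster and -0.52 (-0.80 to -0.23) in arterial-like ECs. Tek was lower in the mutant in the Eln cluster, -0.69 (-0.87 to -0.51), and in the small cluster led by Tafa1, Pcdh15 and Aard, -1.0 (-1.41 to -0.58), which held 10 control and 26 mutant cells. In both of these clusters the share of UMIs from genes over 100 kb was lower in the mutant as well, 14.2% against 19.4% and 12.2% against 21.5%, and its part in the Tek difference was not tested. In the same clusters, Tie1 had a log2 ratio of 0.10 (-0.30 to 0.51) in the Tafa1 cluster and -0.66 in the Eln cluster. Ptprb was at -0.53 (-0.89 to -0.15) in the Tafa1 cluster and -0.10 (-0.29 to 0.10) in the Eln cluster.

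Among the EC clusters, Angpt2 was highest in lymphatic-like ECs in both libraries. They had 74.9 CPM in the control (50.6 to 107, 30 UMIs) and 55.7 CPM in the mutant (40.0 to 75.6, 41 UMIs). With subtypes from marker counts these levels were 69.7 CPM and 25.8 CPM. In the lymphatic-like cluster, 1 cell gave 10 of the 30 control UMIs and 1 cell gave 14 of the 41 mutant UMIs. Angpt2 was found in 11 of its 18 control cells and 8 of its 29 mutant cells. The capillary and venous-like ECs had 7.05 CPM (3.64 to 12.3) and 5.26 CPM (3.87 to 7.00), below the lymphatic-like intervals in both libraries. With types taken from clusters, the genotypes overlapped within each type, with log2 ratios of -0.43 (-1.14 to 0.30) and -0.42 (-1.36 to 0.63). Lymphatic-like cells were 18 of 146 control and 29 of 689 mutant EC-like cells by clusters, but 19 and 64 by marker counts. When mutant levels were weighted by the control mix of clusters, mutant Angpt2 was 12.4 CPM and the log2 ratio was -0.39 in place of -1.0. For Tek the same weighting gave 283 CPM and a log2 ratio of -0.27 in place of -0.08. It gave -0.26 for Tie1 and -0.0012 for Ptprb. This weighting was not done with subtypes from marker counts. The Angpt2 difference also moved with cell cycle phase, with 10.8 CPM in control and 12.4 CPM in mutant cells scored as G1, 22.4 and 5.68 CPM in S, and 16.5 and 5.45 CPM in G2M. In G1 the ratio of levels thus had the opposite sign, 0.20 (-0.70 to 1.22), with an interval that includes 0. Of the 65 mutant UMIs in G1, 14 came from 1 cell. The share of G1 cells with Angpt2 was lower in the mutant, 8.43% against 12.9% in the control.

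Angpt1 was mainly detected outside the endothelium, and EC-like cells gave 0.88% of its control and 2.92% of its mutant UMIs. In the control library it was highest in 2 unnamed clusters, that led by Cga, Six6 and Chga with 125 CPM (98.0 to 156) and the Adh1 cluster with 115 CPM (108 to 122), which did not differ beyond their intervals. Mesenchyme-like cells followed with 83.3 CPM (77.9 to 88.9). The cluster led by Myh11, Actg2 and Myocd (smooth muscle genes) had 61.8 CPM, cardiomyocyte-like cells 61.2 CPM and the Hbb-bs cluster 54.1 CPM, with overlapping intervals. Neuron-like cells had 23.5 CPM, epithelium-like cells 19.6 CPM and mesothelium-like cells 10.1 CPM. Of the 92 control UMIs of neuron-like cells, 53 came from 1 cell, and 8.85% of these cells carried Angpt1. EC-like cells, with 7.22 CPM, and branchial muscle-like cells, with 5.26 CPM, were near the bottom, and neural crest-like cells had 0 UMIs, which allows up to 3.97 CPM. Within EC-like cells, the cluster led by Eln, Fbln5 and Hand2os1 had 18.3 CPM in the control (6 UMIs) and 16.8 CPM in the mutant (26 UMIs). The mutant library had 116 CPM in the Hbb-bs cluster, 109 CPM in the Cga cluster, 81.2 CPM in the Adh1 cluster and 51.3 CPM in mesenchyme-like cells.

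The lower Angpt1 of mesenchyme-like cells was concentrated in 1 group of cells. The class gave 889 control and 486 mutant UMIs, and the log2 ratio of the levels was -0.70 (-0.86 to -0.54), not called. The main finer cluster, led by Twist1, Lum and Prrx1, had 50.6 CPM in control and 47.5 CPM in mutant cells, -0.09 (-0.31 to 0.12). The finer cluster led by Cdh18, Sema5a and Unc5c had 296 and 159 CPM, -0.90 (-1.17 to -0.63). These last cells were shallow, with medians of 8317 and 7073 UMIs, and took 31.7% and 28.7% of their UMIs from genes over 100 kb. Without them the class ratio was -0.29 (-0.50 to -0.08). In the Adh1 cluster, of which the control library held 342 cells and the mutant library 61, Angpt1 was at 115 and 81.2 CPM, -0.50 (-0.78 to -0.22). That cluster was 12.3% of control and 1.75% of mutant cells.

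Angpt1 differed in the other direction in 2 classes. Branchial muscle-like cells gave 124 control UMIs (5.26 CPM) and 210 mutant UMIs (10.7 CPM), a log2 ratio of 1.03 (0.70 to 1.36). The ratio was no longer beyond 1.5-fold over its whole interval in female-like cells, 0.64 (0.16 to 1.10), after thinning, 0.98 (0.25 to 1.75), or in G1 cells, 1.13 (0.18 to 2.12). With all cells Angpt1 and Ptprb were called higher, against 7.53% of the genes tested in that class. Ptprb gave 16 control and 38 mutant UMIs there, 1.52 (0.64 to 2.46), and 9 of the 38 came from 1 cell. The Hbb-bs cluster, which was left unnamed, had 54.1 CPM in the control and 116 CPM in the mutant, 1.10 (0.89 to 1.32). Within it the finer cluster led by Hbb-bs, Hbb-bt and Hbb-y had 111 and 152 CPM, 0.45 (0.23 to 0.67), which was not called. That finer cluster was also unnamed, with 6 of 10 erythroid markers raised and Mpo, Cpa3 and Prtn3 among its top 10 genes. These cells gave 246 of the 252 control and 578 of the 580 mutant UMIs of the cluster. They were 82 control and 135 mutant cells, whereas the finer cluster led by Cxcl2, C1qb and C1qc held 92 control and 41 mutant cells, so the mix of the cluster differed between libraries. Angpt1 and Tek were called higher in the Hbb-bs cluster, against 3.51% of its genes. Epithelium-like cells had 68 control and 30 mutant UMIs, 19.6 and 6.23 CPM, -1.66 (-2.33 to -1.02). Angpt1 was called lower there, against 3.31% of genes, but not with classes from marker counts, -0.95 (-1.36 to -0.55). Of the 68 control UMIs, 59 came from the finer cluster led by Oc90, Tectb and Clu, which held 34 control and 16 mutant cells. The main finer cluster of the class, led by Sftpc, Trp63 and Krt14, gave 9 control and 19 mutant UMIs (3.25 and 5.87 CPM), 0.85 (-0.36 to 2.18).

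**Figure D4:**
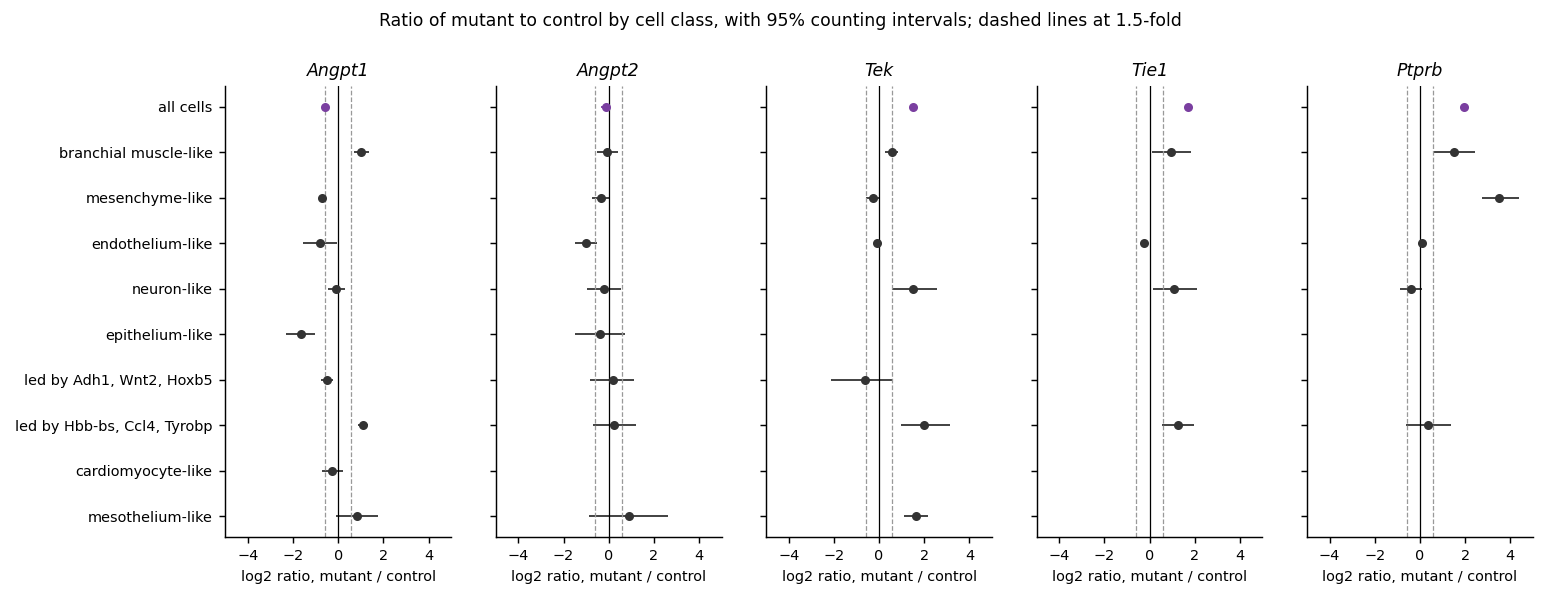
Log2 ratio of mutant over control level (x axis) for each member in each compared class, with 95% counting intervals, pairs with at most 3 UMIs in either library left out, all cells in purple and dashed lines at 1.5-fold. Over all cells Tek, Tie1 and Ptprb lie at 1.51, 1.69 and 1.97, whereas within EC-like cells they lie at -0.08 (0.04 for Tek under a trimmed-mean scaling), -0.26 and 0.07.

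Outside the endothelium, Angpt2 was highest in mesenchyme-like cells among the classes of at least 50 cells per library. None of these classes had a ratio interval off 0. Mesenchyme-like cells had 14.2 CPM in the control (12.1 to 16.7) and 11.2 CPM in the mutant (9.16 to 13.54). EC-like cells had 16.3 CPM (12.2 to 21.4) and 8.17 CPM (6.73 to 9.83). Branchial muscle-like cells had 3.86 and 3.68 CPM, and neuron-like cells 6.40 and 5.56 CPM. A finer cluster of the branchial muscle-like class, led by Lama2, Bmpr1b and Pax7, was lower in the mutant, with 20 control UMIs (10.4 CPM) and 4 mutant UMIs (2.47 CPM), -2.08 (-4.09 to -0.50), not called. Smaller clusters are given side by side only. The Myh11 cluster had 7 UMIs in 39 control cells (9.01 CPM) and 28 UMIs in 25 mutant cells (61.9 CPM), where 52.0% of the mutant cells carried it. There Angpt1 stood the other way, with 48 control and 6 mutant UMIs, so that Angpt2 was 12.7% of the UMIs of both ligands in the control and 82.4% in the mutant. In the Cga cluster, Angpt2 gave 7 UMIs in 35 control and 21 UMIs in 30 mutant cells. Over all cells Angpt2 was 14.8% of ligand UMIs, a share of UMIs that takes no account of transcript length, in the control and 19.1% in the mutant library, and in EC-like cells 69.3% and 66.7%.

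Tek was also present in mesothelium-like cells, with almost no Tie1 or Ptprb beside it. Mesothelium-like cells had 46 control UMIs (21.2 CPM, 15.5 to 28.2) and 77 mutant UMIs (65.4 CPM, 51.6 to 81.7), in 30.0% and 35.8% of cells. Tie1 gave 3 and 1 UMIs in the same cells and Ptprb 2 and 4, whereas in EC-like cells these genes had about as many UMIs as Tek. The log2 ratio of Tek was 1.63 (1.08 to 2.19), called higher against 7.1% of genes in that class. The mutant mesothelium-like cells were shallower, with a median of 14596 against 28114 UMIs, and had 14.8% against 10.0% of UMIs in genes over 100 kb. After thinning, the ratio was 0.75 (-0.21 to 1.75) and the shares of cells 18.6% and 20%. Mesenchyme-like cells had 20.1 and 16.8 CPM of Tek, -0.26 (-0.57 to 0.04), with Tie1 at 3 and 34 UMIs. Both main finer clusters of this class were lower in Tek in the mutant. That led by Twist1 had 126 control UMIs (15.9 CPM) and 48 mutant UMIs (7.31 CPM), -1.12 (-1.63 to -0.63), beyond 1.5-fold. That led by Cdh18 had 68 and 23 UMIs (44.5 and 23.6 CPM), -0.91 (-1.66 to -0.21). The whole class held 215 control and 159 mutant Tek UMIs. Some of its cells were placed by the finer clustering in a cluster with 20 of 22 endothelial markers raised. Their part in the class ratio of Tek was not tested. In branchial muscle-like cells Tek was at 7.64 and 11.2 CPM, 0.55 (0.26 to 0.84).

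Other classes held small amounts of the endothelial members. In neuron-like cells Tek was at 2.82 and 7.97 CPM and Tie1 at 3.07 and 6.45 CPM, both higher in the mutant. The finer cluster led by Neurod1, Ppp1r17 and Ppp1r1c held 2 control and 38 mutant Tek UMIs, 3.25 (1.30 to 6.35), beyond 1.5-fold. It held 0 and 41 Tie1 UMIs, also beyond 1.5-fold. Ptprb gave 17 and 59 UMIs there (11.4 and 19.8 CPM), 0.80 (0.002 to 1.67), not beyond 1.5-fold. Single neuron-like cells gave 8 of 11 control and 14 of 63 mutant Tek UMIs, and 9 of 12 and 13 of 51 Tie1 UMIs. Over the whole class Ptprb was at 16.1 and 12.3 CPM, with a log2 ratio of -0.39 (-0.87 to 0.09). Of the members, 0 were called in this class, against 10.1% of genes. Epithelium-like cells had 1 control and 17 mutant Tek UMIs, a log2 ratio of 3.61 (0.94 to 9.0) that rests on a single control UMI and on fewer than 20 in all. The Hbb-bs cluster had 2.15 and 8.60 CPM of Tek and 5.58 and 13.2 CPM of Tie1. The hepatoblast-like cluster, found in the mutant library alone, had 13 Tek, 16 Tie1 and 13 Ptprb UMIs, a ratio near that of EC-like cells (4431, 4404 and 4355). Called cells that failed the filters held 67.4 CPM of Tek in the mutant and 31.7 CPM in the control library. These are not empty droplets, so their level does not measure free RNA. The part of free RNA in the values of this paragraph was not tested. No member was called in the Adh1 cluster, where 3 members had enough UMIs to be tested, or in cardiomyocyte-like cells, where 1 had. In these classes 4.32% and 5.83% of genes were called. In the Adh1 cluster Tek was at 6.34 CPM in the control and 4.06 CPM in the mutant, and Ptprb gave 5 control and 0 mutant UMIs.

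Ptprb and Tie1 were also called higher in mesenchyme-like cells, against 4.07% of genes there. Ptprb gave 15 control UMIs (1.40 CPM) and 150 mutant UMIs (15.8 CPM), a log2 ratio of 3.49 (2.73 to 4.37). Tie1 gave 3 and 34 UMIs, 3.68 (2.01 to 6.02). Of 19 pan-endothelial markers tested there, 14 were higher in the mutant and 5 lower, with a median log2 ratio of 0.66 against -0.01 over all 15315 genes. Called higher were 5, Pecam1, Cdh5, Fli1, Icam2 and Tal1. Cd34, -0.43 (-0.62 to -0.24), and Ramp2, -0.41 (-0.58 to -0.23), had intervals wholly below 0 but were not called. The Ptprb UMIs were concentrated in mesenchyme-like cells that the finer clustering placed in a cluster led by Gja4, Fbln5 and Eln. That finer cluster was named as endothelium, with 20 of 22 endothelial markers raised. Without these cells Ptprb was 0.94 (-0.06 to 1.98), and it was 0.80 (-0.22 to 1.86) when the cells with the highest doublet scores were removed. A small group of neuron-like cells also carried Ptprb, the finer cluster led by Cntnap2 and Nwd2, with 127 CPM in 16 control and 134 CPM in 9 mutant cells, and these cells took 44.9% and 36.8% of their UMIs from genes over 100 kb.

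The rest of the pathway was read from gene lists in EC-like cells, where all 14079 genes tested had a median log2 ratio of -0.07. Of 16 tested adaptors and effectors of the Tie receptors, 6 were higher and 10 lower, with a median of -0.06. Called among them were Shc1, an adaptor, at 57.1 and 105 CPM (0.88, 0.65 to 1.11), Foxo3, a transcription factor held out of the nucleus by AKT, at 24.2 and 50.6 CPM (1.07, 0.73 to 1.43), and Grb14, an adaptor that inhibits receptor kinases, at 27.3 and 3.72 CPM (-2.88, -3.40 to -2.36). Foxo1, the FOXO factor best known as an activator of Angpt2, was at 116 and 130 CPM (0.16, -0.003 to 0.32). Akt1 was at 152 and 105 CPM (-0.54, -0.69 to -0.39), not called.

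Of 10 tested modulators of Tie signalling at the cell surface, 4 were higher and 6 lower, with a median of -0.09, and Itgb1, the integrin beta-1 chain, was called at 719 and 1182 CPM (0.72, 0.65 to 0.78). Of 4 tested angiopoietin-like genes, 1 was higher, Angptl4, a hypoxia-responsive secreted protein that does not bind Tek, at 6.91 and 31.8 CPM (2.20, 1.59 to 2.89). Of 9 other receptor-type phosphatases, 2 were higher and 7 lower, with a median of -0.34. Ptpre at 47.1 and 14.5 CPM (-1.70) and Ptprk at 267 and 155 CPM (-0.78) were called lower, whereas Ptprb itself was not. Of 15 regulators named for Tek or Angpt2, 8 were higher and 7 lower, with a median of 0.04. Foxc1 (17.0 and 35.1 CPM, 1.05) and Foxc2 (14.4 and 42.3 CPM, 1.55), forkhead factors of vessel and lymphatic development, were called higher. Prox1, the lymphatic regulator, was at 84.1 and 50.8 CPM (-0.73, -0.93 to -0.52), and lymphatic-like cells were 18 of 146 control and 29 of 689 mutant EC-like cells by clusters and 19 and 64 by marker counts.

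Of 20 pan-endothelial genes, 7 were higher and 13 lower, with a median of -0.36, so the Tie1 ratio of -0.26 was no lower than theirs. Emcn was called higher (0.71) and Robo4 (-1.20) and Sox18 (-0.84) lower. The 10 hypoxia markers were all called higher, with a median of 3.01, far outside the range of the members. This list was chosen with that response known and is given for scale only. Among markers of other cell types in EC-like cells, the summed mesenchyme markers were at 378 CPM in the control and 246 CPM in the mutant, with 14 of 15 detected in each, and the macrophage markers at 61.2 and 37.7 CPM. Most of the other lists were higher in the mutant. Neural crest markers were at 74.4 and 244 CPM, cardiomyocyte markers at 76.9 and 167 CPM, mesothelium markers at 11.3 and 44.9 CPM and epithelium markers at 15.7 and 43.0 CPM. Neuron markers were at 233 and 375 CPM and branchial muscle markers at 88.8 and 126 CPM. Mural, erythroid and hepatoblast markers differed less, at 269 and 264, 69.1 and 69.7, and 38.6 and 43.8 CPM. The part of other cells in the EC-like values was not tested. The 22 endothelial markers summed to 8798 and 8756 CPM.

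**Figure D5:**
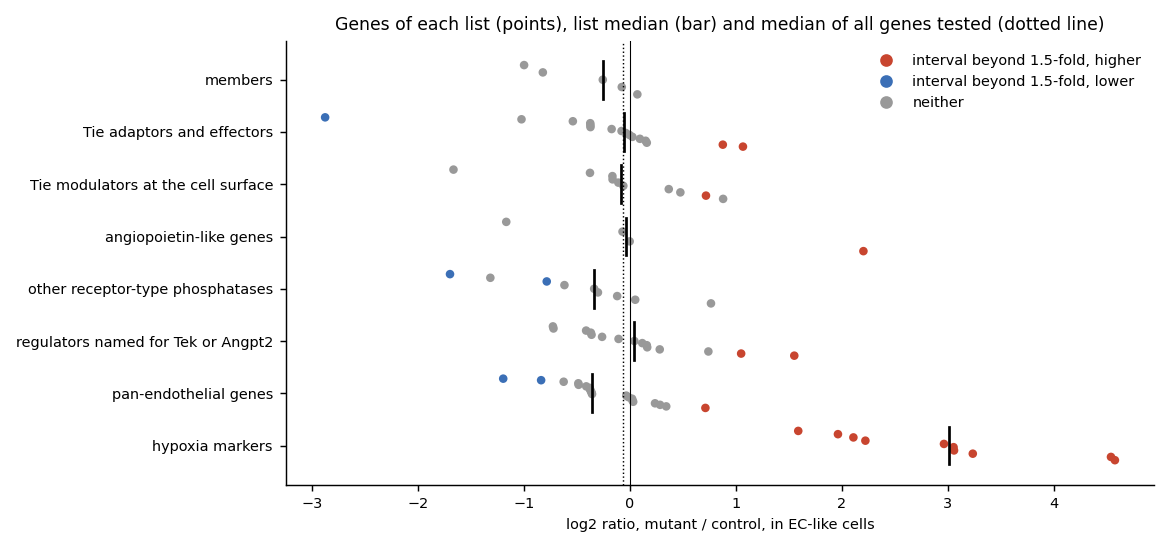
Log2 ratio of mutant over control level in EC-like cells for each tested gene (points) of the 5 members and of each list, with a bar at the median of the list and a dotted line at the median of all tested genes (-0.07). The medians of the members and of 6 lists lie between -0.36 and 0.04, and that of the hypoxia markers lies at 3.01.

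The genes whose pattern was most like that of each member were found over 47 combinations of finer cluster and library, among 14885 genes, by Pearson r of log2 (CPM + 10). Nearest to Tie1 were Ccm2l (0.98), Sox17 (0.98) and Plvap (0.97), and nearest to Ptprb were Sox7 (0.98), Sox17 (0.98) and Tie1 itself (0.97). Tek had lower maxima, Ecscr (0.91), Mmrn2 (0.90) and Sox7 (0.89), and its r was 0.88 with Tie1 and 0.89 with Ptprb. The ligands had no close match, the nearest being Gramd1c (0.68) for Angpt1 and Dnhd1 (0.73) for Angpt2, and they had an r of 0.25 with each other. These points share 2 libraries and differ in depth, and the values are a description.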

How the data were processed

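The 5 members, the gene lists and the alternatives were chosen with earlier results of these data known. The authors used Cell Ranger 7.1.0 with the mm10 genome. Their deposited files hold unnormalized UMI counts per gene in each called cell. Whether introns and strand were used, and the annotation release, are not given in the sources used here. The filters and the integration follow the study's methods, which state no resolution.

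Kept cells (2783 control, 3489 mutant) were integrated with Seurat 5.3.0 in R 4.3.3 by canonical correlation anchors, with cell-cycle scores regressed, on 2000 variable genes without 98 list genes, members included, using 30 components and 20 neighbours at resolution 0.3 (0.8 for finer clusters). Clusters with at least 3 raised markers were named, unless their leading genes went against the name. EC-like cells were clustered again with 20 components. Doublets were kept, since Scrublet (scanpy 1.11.5) called 0 control and 1 mutant cells, and an alternative removed the highest scores.

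The counts of each library were summed over the cells of a class and scaled to its total (CPM), with exact Poisson intervals. Log2 ratios carry conditional exact binomial intervals and shares Clopper-Pearson intervals (scipy 1.17.1). Calls were limited to 9 classes with at least 50 cells per library and genes with at least 20 UMIs. No test across genotypes was possible with 1 library each. The calculation was tested on simulated counts. Named genes were the members, list genes called in EC-like cells, the 3 genes most like each member, and label checks. Foxo1, Akt1, Prox1, Cd34, Ramp2 and the 5 endothelial markers called in mesenchyme-like cells were named after their values were seen. Alternatives included edgeR 4.0.16 TMM factors, and those on gene span, EC clusters, finer clusters and subtype mix were added after the data were seen. Positions are from GENCODE on GRCm38, and promoters from RefSeq, where 2 of 5 members had an entry.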

Additional observations from a re-analysis of the deposited data

Results flagged for a closer look

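No difference between classes or clusters given here was tested, since each rests on 1 library per genotype. Several members had counting intervals wholly above 0 in some classes and wholly below 0 in others. For Angpt1 the log2 ratios of mutant over control were -1.66 in epithelium-like, -0.82 in endothelium-like and -0.70 in mesenchyme-like cells and -0.50 in the cluster led by Adh1, Wnt2 and Hoxb5, against 1.03 in branchial muscle-like cells and 1.10 in the cluster led by Hbb-bs, Ccl4 and Tyrobp. Of the epithelium-like Angpt1 UMIs in the control, 59 of 68 came from the finer cluster led by Oc90, Tectb and Clu, and the main finer cluster, led by Sftpc, Trp63 and Krt14, was at 0.85 (-0.36 to 2.18). The Hbb-bs cluster joined 82 control and 135 mutant cells of the finer cluster led by Hbb-bs, Hbb-bt and Hbb-y, where Angpt1 was at 0.45 (0.23 to 0.67), with 92 and 41 cells of that led by Cxcl2, C1qb and C1qc. The Angpt1 ratio in endothelium-like cells rests on 23 control UMIs, of which 11 came from 1 cell. For Tie1 the ratio was -0.26 in endothelium-like cells but 0.95 in branchial muscle-like, 1.07 in neuron-like and 3.68 in mesenchyme-like cells and 1.24 in the Hbb-bs cluster. In each of the classes in which its ratio was above 0, Tie1 had at most 66 UMIs per library, against 1222 and 4404 in endothelium-like cells. Of the 20 control Tie1 UMIs of branchial muscle-like cells, 14 came from 1 cell. Some of the mesenchyme-like cells were placed by the finer clustering in a cluster with 20 of 22 endothelial markers raised.

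Among the clusters of EC-like cells, Tie1 was at -0.74 in lymphatic-like ECs, -0.66 in the cluster led by Eln, Fbln5 and Hand2os1 and -0.52 in arterial-like ECs, but at 1.34 in the cluster led by Hpse2, Dlk1 and Col1a1, which held 4 control and 17 mutant cells. Ptprb was at -0.53 in the cluster led by Tafa1, Pcdh15 and Aard and at 0.27 in capillary and venous-like ECs.

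Barcodes that failed the filters (1722 control and 1868 mutant) held more of 4 members in the mutant library. The log2 ratios there were 1.62 for Angpt2 (10 and 34 UMIs), 1.09 for Tek, 1.48 for Tie1 and 1.59 for Ptprb. Angpt1 was at -0.61 in the same barcodes.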

How the results depend on the processing

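Values are log2 ratios in EC-like cells unless stated. With 1 library per genotype leaving out a library is not possible. No paired analysis was possible because the labels give no replicate numbers that pair libraries.

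Tek stayed between -0.27 and 0.088 in 17 alternatives, and 10 moved it by less than its counting interval. The others gave 0.024 with classes from marker counts, 0.044 with TMM factors, 0.024 with the median gene ratio, -0.23 in G1 cells, 0.088 scaled by genes of like span, 0.023 in capillary and venous-like ECs and -0.27 at the control subtype mix. Tie1 was below 0 in all 17, with -0.35 without integration, -0.14 with TMM factors, -0.15 with the median ratio, -0.41 in G1 cells and -0.0074 in capillary and venous-like ECs. Ptprb was 0.19 with TMM factors, 0.24 as a mean over cells, 0.24 after thinning, 0.19 in female-like cells, -0.18 in G1 cells, 0.23 scaled by span and 0.27 in capillary and venous-like ECs. Angpt2 was -0.49 as a mean over cells, -1.51 in female-like cells, -0.42 in capillary and venous-like ECs and -0.39 at the control mix. It turned to 0.20 (-0.70 to 1.22) in G1 cells. The causes were not tested.

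Angpt1 in mesenchyme-like cells stayed below 0 in 16 alternatives, with -0.34 without integration, -0.52 with a minimum of 1000 genes, -0.97 as a mean over cells, -0.98 (-1.26 to -0.70, beyond 1.5-fold) after thinning, -0.52 in female-like cells, -0.52 scaled by span and -0.29 without the finer cluster led by Cdh18. List medians moved to 0.15 for surface modulators and -0.48 for receptor-type phosphatases at a minimum of 1 UMI, and to 1.10 for angiopoietin-like genes at 100 UMIs, where 2 genes were left.

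Shares of EC-like cells after thinning were 2.80% for Angpt1, 6.99% for Angpt2, 67.8% for Tek, 77.6% for Tie1 and 60.1% for Ptprb in the control and 2.28%, 3.81%, 70.9%, 74.9% and 65.8% in the mutant. With subtypes from marker counts, Tek was at 306 (control) and 299.7 CPM (mutant) in capillary and venous-like ECs, and mutant lymphatic-like ECs had 182 CPM of Tek and 25.8 CPM of Angpt2. Outside ECs, Ptprb in mesenchyme-like cells ranged from 0.16 without integration to 5.62 after thinning (1 control UMI), and Tek in mesothelium-like cells from 0.75 to 1.95. Depth limits the ligands most, with 52 and 112 UMIs of Angpt2 in EC-like cells.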

Other observations

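The cells with the largest amounts of each ligand in EC-like cells were few. Of the 52 control Angpt2 UMIs, 10 came from 1 cell, and of the 112 mutant UMIs, 14 came from 1 cell. Outside the endothelium, the control neural crest-like cells had 18 Angpt2 UMIs in 53 cells (19.4 CPM, 11.5 to 30.6) with 0 of Angpt1, and the 23 mutant cells had 4 and 1. A finer cluster led by Oc90, Tectb and Clu, genes of the inner ear, had 59 Angpt1 UMIs in 34 control cells, 113 CPM, the level of the Adh1 cluster. In branchial muscle-like cells Angpt2 was 42.3% of the UMIs of both ligands in the control and 25.5% in the mutant library. Among the finer clusters of that class, Angpt1 was at 12.5 and 39.5 CPM in that led by Lama2, Bmpr1b and Pax7. Its log2 ratio was 1.66 (0.96 to 2.40), in shallow cells with a median of 8621 UMIs. In the cluster led by Hist1h1a it was at 7.15 and 15.3 CPM, 1.10 (0.59 to 1.62). The clusters led by Msc, 0.55 (-0.14 to 1.26), and by Myh3, 0.71 (-0.59 to 2.06), had intervals that include 0.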
